A study of Mus musculus with 18 samples.

Results

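The messenger RNA of 43 cell cycle genes was followed in B16F10 tumors, a mouse melanoma grown under the skin of C57BL/6 mice. The genes were listed by their known place in the cell cycle and looked up by symbol among the 50600 genes of the count table. The look-up uses no measured value, but the members were chosen with earlier results of these data known. They fall into 23 genes of the G2 and M phases (G2/M), 18 genes of the G1 to S transition (G1/S) and 2 regulators of G1, Ccnd1 and Cdkn1a, which are given apart. All 43 passed the filter on low counts.

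Each group held 2 tumors, collected 24 h after the final intratumoral injection. The p-values rest on a spread between tumors estimated jointly over all groups fitted together, not on the groups compared alone. After 1 dose the groups were PBS, unloaded extracellular vesicles (EV), vesicles loaded with 0.1 µg of the STING agonist CDN2 (exoCDN2), free CDN2 at 20 µg and free CDN2 at 100 µg. After 2 doses, 3 days apart, they were PBS, exoCDN2 at 0.1 µg, free CDN2 at 20 µg, and a pair of tumors labelled as free CDN2 without an amount. All mice carried the same tumor line, and the labels give no age or sex. CDN2 is a cyclic dinucleotide, a small molecule that binds STING, and STING in turn switches on interferon and inflammatory genes. The comparisons ask how the cell cycle genes of a whole tumor differed after a loaded vesicle, an empty vesicle and free agonist, and after 1 or 2 doses.

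A dividing cell copies its DNA in S phase and separates the copies in mitosis. G1/S genes encode the proteins that license and fire replication origins, make deoxynucleotides and drive entry into S phase, and most are targets of E2F transcription factors held back by the RB family. G2/M genes encode mitotic cyclins, kinases, kinetochore and spindle proteins, and are transcribed late in the cycle under MYB-MuvB and FOXM1. Cdkn1a encodes p21, an inhibitor of cyclin-dependent kinases and a well known p53 target, and Ccnd1 encodes cyclin D1, which opens G1.

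Short motifs were counted in the promoters of the G2/M and G1/S genes, with no test between the phases. RefSeq promoters (GRCm38.p6, the 250 bases before the gene start) were found for 34 of the 43 genes. The cell cycle homology region (CHR, TTTGAA on either strand), a site of the MuvB complex, was present in 38.9% of 18 G2/M promoters, 12.5% of 16 G1/S promoters and 16% of all 32851 promoters. The E2F motif (TTTCCCGC, TTTCGCGC, TTTGCCGC or TTTGGCGC on either strand) was present in 25% of G1/S promoters, 5.56% of G2/M promoters and 1.86% of all promoters. The CCAAT box (CCAAT on either strand), bound by NF-Y, was present in 83.3% of G2/M promoters, 62.5% of G1/S promoters and 33.8% of all. Neither of the 2 promoters listed for Cdkn1a held any of these letters. A match describes the letters only and shows no binding. The sequences shown are the 3 promoters of each phase that held the motif of the phase (CHR or E2F) and belonged to the genes with the smallest p after 2 doses of free CDN2. Capitals mark the CHR, CCAAT and E2F matches, and each sequence runs 5′ to 3′ on the gene's strand and ends at the base before the gene start of RefSeq. GENCODE places the starts of some of these genes elsewhere, and by its coordinates the whole Cdc6 stretch and the end of the Cdk1 stretch lie inside the gene.
Ccnb2, G2/M, chr9:70421555-70421804, - strand: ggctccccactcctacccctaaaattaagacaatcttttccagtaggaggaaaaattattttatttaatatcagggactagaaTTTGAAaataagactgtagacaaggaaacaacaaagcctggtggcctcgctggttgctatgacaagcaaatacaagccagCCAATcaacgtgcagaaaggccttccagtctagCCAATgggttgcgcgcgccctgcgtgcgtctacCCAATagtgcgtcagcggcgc
Cdk1, G2/M, chr10:69352913-69353162, - strand: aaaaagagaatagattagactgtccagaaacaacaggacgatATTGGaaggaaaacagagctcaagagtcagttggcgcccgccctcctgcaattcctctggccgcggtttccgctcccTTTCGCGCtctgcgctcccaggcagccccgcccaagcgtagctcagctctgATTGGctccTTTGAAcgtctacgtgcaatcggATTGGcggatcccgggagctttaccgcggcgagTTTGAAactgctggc
Top2a, G2/M, chr11:99024190-99024439, - strand: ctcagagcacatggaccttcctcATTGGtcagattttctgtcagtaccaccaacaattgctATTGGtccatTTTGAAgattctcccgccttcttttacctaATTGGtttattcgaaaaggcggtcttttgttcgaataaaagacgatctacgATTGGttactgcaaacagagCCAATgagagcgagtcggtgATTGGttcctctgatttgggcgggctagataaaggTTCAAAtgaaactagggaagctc
Mcm6, G1/S, chr1:128359706-128359955, - strand: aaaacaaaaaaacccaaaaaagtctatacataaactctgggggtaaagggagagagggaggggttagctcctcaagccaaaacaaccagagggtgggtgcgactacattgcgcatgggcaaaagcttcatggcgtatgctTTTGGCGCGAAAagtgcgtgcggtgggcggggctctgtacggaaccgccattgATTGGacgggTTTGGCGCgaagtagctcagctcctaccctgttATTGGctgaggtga
Cdc6, G1/S, chr11:98907901-98908150, + strand: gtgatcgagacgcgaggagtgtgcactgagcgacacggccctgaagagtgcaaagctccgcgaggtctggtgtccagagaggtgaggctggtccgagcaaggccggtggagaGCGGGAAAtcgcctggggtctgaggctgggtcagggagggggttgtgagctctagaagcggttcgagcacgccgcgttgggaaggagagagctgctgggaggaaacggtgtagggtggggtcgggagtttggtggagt
Mcm5, G1/S, chr8:75109259-75109508, + strand: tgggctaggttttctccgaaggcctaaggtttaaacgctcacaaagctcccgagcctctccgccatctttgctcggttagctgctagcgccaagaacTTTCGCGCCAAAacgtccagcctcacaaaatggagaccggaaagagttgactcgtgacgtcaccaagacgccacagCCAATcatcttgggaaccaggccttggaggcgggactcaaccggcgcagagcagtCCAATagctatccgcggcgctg
Cdk1, the kinase that starts mitosis, held 2 CHR, 3 CCAAT and 1 E2F match. Top2a, which untangles DNA for segregation, held 2 CHR and 6 CCAAT matches. Mcm6 and Mcm5, subunits of the replicative helicase, held 3 and 2 E2F matches, of which some overlap each other.

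Several tumors stood apart before any comparison. Total expected counts per tumor ran from 21608895 to 65983630, the lowest in CDN2 20 µg, 2 doses, replicate 1, and levels are given below as CPM, counts scaled to a common library total with TMM factors. The 2 tumors given 2 doses of CDN2 at 20 µg differed by more than 2-fold in 27.4% of genes, against 4.02% to 12.2% in the other groups. In replicate 2 of PBS, 2 doses, AT-rich transcripts were low: over 10700 genes with a mean above 5 CPM, its log2 difference from replicate 1 had a Spearman correlation of 0.74 with transcript GC content, and over the 41 phase genes of 0.81. With transcript length the correlation was -0.24 over all these genes and -0.52 over the phase genes, and the median difference was -0.042 for the 2715 transcripts over 4700 bases. The phase genes with transcripts over 4700 bases, a limit set after their values were seen, are the 5 genes Mki67, Top2a, Cenpe, Cenpf and Kif11, and all belong to G2/M. Their median difference was -2.22, against 0.24 for the other 36. Mki67, whose Ki-67 protein coats mitotic chromosomes and is the usual stain for proliferation, stood at 189.5 CPM in replicate 1 and 33.1 CPM in replicate 2 of PBS, 2 doses. Cenpe, a kinetochore motor, stood at 51.3 and 10.2 CPM there, and Cenpf, another kinetochore protein, at 84.3 and 16.2 CPM. Values for these 5 genes against PBS, 2 doses rest on 2 control tumors that differed widely from each other. Melanocyte markers (10 genes, Pmel, Tyr and Dct among them) summed to 21630 to 25690 CPM in the PBS tumors.

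In PBS tumors after 1 dose, all 43 genes were well measured and the pairs lay close. Per kilobase of transcript, the highest levels among the phase genes belonged to 3 G1/S genes: Pcna, the clamp that holds the replicative polymerase, at 279.1 ± 9.26 CPM per kb (SD, n = 2), Rrm2, the regulated subunit of ribonucleotide reductase, at 141.7 ± 2.35 CPM per kb, and Mcm2, a helicase subunit, at 133 ± 2.93 CPM per kb. Top2a led the G2/M genes at 93.4 ± 2.23 CPM per kb. The lowest were Ccne2 (cyclin E2) at 6.18 ± 0.662 and Cenpf at 7.71 ± 0.465 CPM per kb.

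After a single dose no phase gene was called, while the 2 G1 regulators were called with free CDN2. A gene was called when its edgeR quasi-likelihood p, adjusted by Benjamini-Hochberg over 16927 genes, was under 0.05 and its ratio exceeded 2. No G2/M or G1/S gene was called after EV, exoCDN2, CDN2 20 µg or CDN2 100 µg against PBS, in edgeR or in DESeq2. At an unadjusted p under 0.05, 0, 0, 0 and 1 of the 23 G2/M genes and 0, 0, 1 and 1 of the 18 G1/S genes passed in that order. Of all genes tested, 0% were called in either direction after EV, 2.62% after exoCDN2, 3.14% after CDN2 20 µg and 2.44% after CDN2 100 µg. The median log2 fold change of the G2/M genes was 0.050, 0.14, -0.11 and 0.055, and of the G1/S genes -0.13, 0.020, -0.031 and 0.11. Ccnb1, cyclin B1, the partner of Cdk1, was at 161.9 and 167.4 CPM with PBS, 222.4 and 178.9 CPM with EV, 192.5 and 173 CPM with exoCDN2, 159 and 174.4 CPM with CDN2 20 µg, and 183.3 and 155.1 CPM with CDN2 100 µg. Apart from EV replicate 1 these values sit in 1 narrow band. The widest single value among the phase genes with exoCDN2 was that of Cenpe, with a log2 fold change of 0.82 ± 0.52 (SE; adjusted p = 0.501).

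Cdkn1a rose with 1 dose of free CDN2 at 20 µg. It was at 123 and 118.3 CPM with PBS and at 366.8 and 297.6 CPM with CDN2 20 µg (log2 fold change 1.46 ± 0.26, adjusted p = 0.00787). With exoCDN2 it was at 223.8 and 241.2 CPM, above both PBS tumors, but was not called (0.95 ± 0.26, adjusted p = 0.075). It was called when all 4 PBS tumors served as the control (1.21, adjusted p = 0.0115) and with GC and length offsets (1.14, adjusted p = 0.012). With CDN2 100 µg it was at 139.7 and 168.7 CPM (0.36 ± 0.26, adjusted p = 0.604), nearer to PBS than the lower amount, and EV gave 108.5 and 156.8 CPM. The difference between exoCDN2 and CDN2 20 µg in Cdkn1a was not called (-0.51 ± 0.26, adjusted p = 0.291). Endothelial markers were lower in the same tumors: 5 of 6 were called lower with CDN2 20 µg (median log2 fold change -1.31), and their sum was 33.2 and 33.3 CPM against 88.1 and 90.9 CPM with PBS. Their part in the Cdkn1a value was not tested. The call with CDN2 20 µg was lost without PBS replicate 1 (1.49, adjusted p = 0.087) or PBS replicate 2 (1.44, adjusted p = 0.101).

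Ccnd1 fell with the higher amount of free CDN2. It stood at 219.1 and 211.1 CPM with PBS, 118.5 and 126.1 CPM with CDN2 20 µg and 77.6 and 105.5 CPM with CDN2 100 µg. With 100 µg the log2 fold change was -1.23 ± 0.18 (adjusted p = 0.00351), and without CDN2 100 µg replicate 1 the call was lost (-1.03, adjusted p = 0.0513). With 100 µg, 3 of 10 T and NK cell markers were called lower (median -3.29), with sums of 9.4 and 9.67 CPM against 13.3 and 16.8 CPM. These sums over 10 genes are low in every group given 1 dose, and the EV tumors held 5.83 and 13.2 CPM. The part of these markers in the Ccnd1 value was not tested. With 20 µg its adjusted p was 0.0245 at a ratio under 2 (-0.81 ± 0.18). The exoCDN2 tumors held 157.3 and 175 CPM (-0.37 ± 0.18, adjusted p = 0.342) and the EV tumors 155.3 and 157.4 CPM (-0.46 ± 0.18, adjusted p = 1), all below both PBS tumors. Between exoCDN2 and CDN2 20 µg after 1 dose no phase gene or regulator was called, at a background of 0.608% of all genes, while 3 G2/M genes had an unadjusted p under 0.05. With no filter on low counts, or in a fit of these groups alone, 3 phase genes were called higher with exoCDN2.

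**Figure D1:**
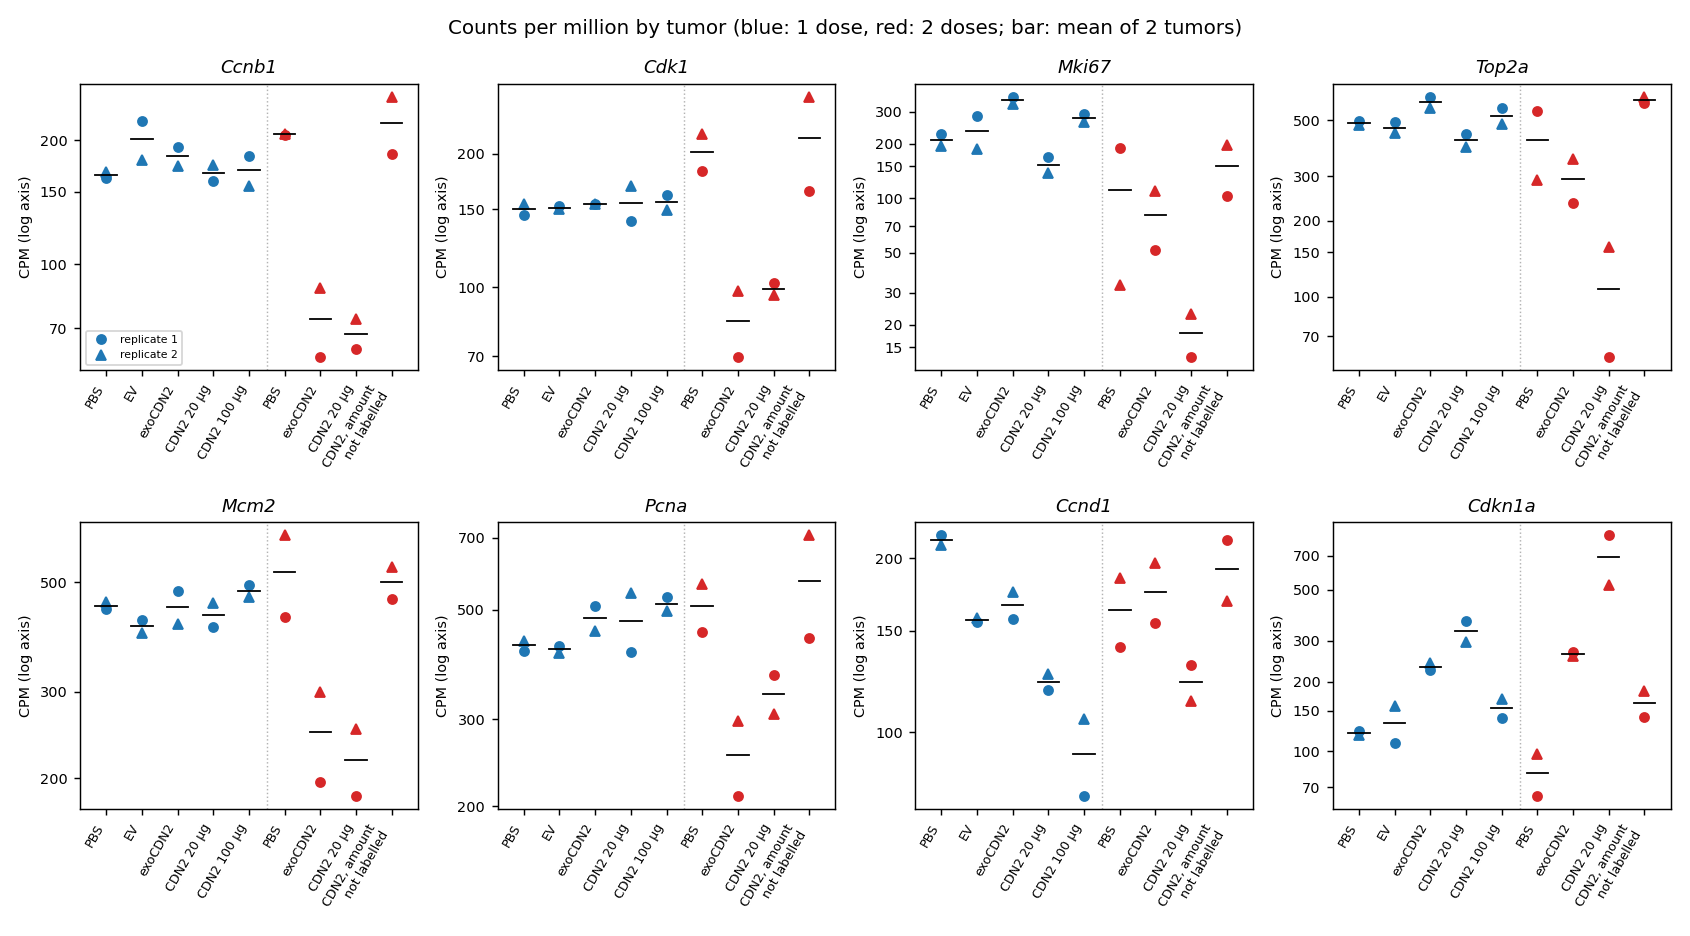
CPM on a log axis for Ccnb1, Cdk1, Mki67, Top2a, Mcm2, Pcna, Ccnd1 and Cdkn1a in each of 18 tumors, by treatment group (blue 1 dose, red 2 doses; circle replicate 1, triangle replicate 2; bar the mean of 2 tumors). Ccnb1 lies between 155.1 and 222.4 CPM in every 1-dose tumor and at 59.6 to 87.5 CPM in the 4 tumors given 2 doses of exoCDN2 or CDN2 20 µg.

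After 2 doses of exoCDN2 genes of both phases fell. Of the 23 G2/M genes, 12 were called lower and 0 higher (background 2.48% of all genes lower), and 17 were lower by adjusted p alone (background 7.04%). Of the 18 G1/S genes, 4 were called lower and 11 were lower by adjusted p alone. The median log2 fold change was -1.02 for G2/M and -0.89 for G1/S, against 0.0064 for all genes. Both exoCDN2 tumors lay below both PBS tumors in 18 of 23 G2/M genes and 16 of 18 G1/S genes, against 29.3% of all genes.

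The cyclins and kinases of mitosis gave the clearest values. Ccnb1 was at 205.7 and 206.8 CPM with PBS and at 59.6 and 87.5 CPM with exoCDN2 (log2 fold change -1.49 ± 0.18, adjusted p = 0.000259). Ccnb2 (cyclin B2), whose promoter is printed above, was at 97.6 and 98.6 CPM with PBS and 36.8 and 43.7 CPM with exoCDN2 (-1.29 ± 0.13, adjusted p = 5.1e-05). Cdk1 was at 182.5 and 220.9 CPM with PBS and 69.6 and 98.1 CPM with exoCDN2 (-1.27 ± 0.17, adjusted p = 0.000361). In all 3 genes both treated tumors lay well under both controls, and replicate 1 of exoCDN2 was the lower. Ccna2 (cyclin A2), the spindle kinases Aurka, Aurkb and Plk1, and the checkpoint kinase Bub1 were also called lower, with log2 fold changes from -1.24 to -1.02. Cdc20 and Ube2c, which serve the anaphase-promoting complex, were called at -1.33 and -1.21. Birc5 (survivin), of the chromosomal passenger complex, was called at -1.07.

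Cenpa, the histone H3 variant of the centromere, showed the lowest value of the G2/M genes. It was at 93.8 and 104.3 CPM with PBS and 25.9 and 32.3 CPM with exoCDN2 (-1.77 ± 0.30, adjusted p = 0.00178). The spindle genes Kif20a, Tpx2 and Nusap1, the checkpoint kinase Bub1b and the transcription factor Foxm1 passed the adjusted p but not the ratio, with log2 fold changes from -0.98 to -0.75. Mybl2, the MYB factor of the MuvB complex, had -0.81 ± 0.26 (adjusted p = 0.0544). The 5 long-transcript genes did not pass: Mki67 was at 52 and 109 CPM with exoCDN2 (-0.47 ± 0.58, adjusted p = 0.636), between its 2 PBS tumors. Top2a was at 235.9 and 350.4 CPM, against 545.5 and 291.4 CPM with PBS (-0.51 ± 0.38, adjusted p = 0.397). Cenpe, Cenpf and Kif11 had log2 fold changes of 0.05, -0.31 and -0.79. For these 5 genes the treated tumors overlapped with replicate 2 of PBS.

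Of the 4 genes of nucleotide synthesis, 2 were called and all 4 passed the adjusted p, with Rrm1 and Rrm2 at -0.88 and -0.94. Tk1, thymidine kinase, was at 129 and 166.7 CPM with PBS and 44.3 and 73.4 CPM with exoCDN2 (-1.33 ± 0.25, adjusted p = 0.00322). Tyms, thymidylate synthase, was at 72.8 and 84.1 CPM with PBS and 27.1 and 36.7 CPM with exoCDN2 (-1.30 ± 0.19, adjusted p = 0.00072). Pcna was at 452 and 565.4 CPM with PBS and 210.1 and 298 CPM with exoCDN2 (-1.002 ± 0.19, adjusted p = 0.00364), just past the ratio limit. The groups did not overlap in any of the 3. Mcm2 was called at -1.08 ± 0.22 (adjusted p = 0.00624), and the 6 helicase subunits Mcm2 to Mcm7 had log2 fold changes from -1.08 to -0.59, of which 4 passed the adjusted p. The origin factors Cdc6, Cdt1, Cdc45 and Gins2 had log2 fold changes from -0.66 to -0.52, and none was called. Ccne1 (cyclin E1), with -0.44 ± 0.20 (adjusted p = 0.151), and E2f1, with -0.72 ± 0.36 (adjusted p = 0.197), did not pass.

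The extent of the exoCDN2 difference depended on single tumors. Fewer phase genes were called lower without exoCDN2 replicate 1, and more without exoCDN2 replicate 2. With 1 tumor left out the median log2 fold change ran from -1.31 to -0.77 for G2/M and from -1.25 to -0.59 for G1/S. With offsets for each tumor's trend on GC content and length, 13 G2/M and 4 G1/S genes were called lower. The share of all genes called lower is not given for these fits.

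After 2 doses of free CDN2 at 20 µg, 16 of 23 G2/M genes and 7 of 18 G1/S genes were called lower and 0 higher (background 10.6% of all genes lower), and 20 and 14 were lower by adjusted p alone (background 23.2%). The median log2 fold change was -1.39 for G2/M and -0.73 for G1/S, against 0 for all genes. Both treated tumors lay below both PBS tumors in 20 of 23 G2/M and 16 of 18 G1/S genes, against 31.3% of all genes.

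Mki67, Kif11 and Top2a had the lowest values of the G2/M genes here. Mki67 was at 13.2 and 22.8 CPM with CDN2, below both PBS tumors at 189.5 and 33.1 CPM (-2.61 ± 0.63, adjusted p = 0.00499). Top2a was at 57.7 and 157.6 CPM with CDN2 and at 545.5 and 291.4 CPM with PBS (-1.95 ± 0.39, adjusted p = 0.00188). Kif11, the spindle motor that pushes poles apart, was called at the same value as Top2a (-1.95 ± 0.40, adjusted p = 0.00199). These 3 are among the longest transcripts, and with GC and length offsets their log2 fold changes were -1.94, -1.44 and -1.41, all still called. Cenpe and Cenpf, called at -1.42 and -1.48, were not called with these offsets (adjusted p = 0.203 and 0.183).

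Of the 18 G2/M genes with shorter transcripts, 11 were called lower. Ccnb1 was at 62.3 and 73.6 CPM with CDN2 (-1.60 ± 0.19, adjusted p = 8.29e-05). Cdk1 was at 102.4 and 96 CPM (-1.02 ± 0.17, adjusted p = 0.000514). Foxm1, which drives many G2/M genes, was at 47.6 and 43.5 CPM with CDN2 against 113.3 and 148.6 CPM with PBS (-1.52 ± 0.17, adjusted p = 6.58e-05). In all 3 both treated tumors were close to each other and below both controls. The cyclin, kinase and spindle genes Ccna2, Bub1, Bub1b, Aurkb, Plk1, Kif20a, Tpx2 and Nusap1 were called at -1.82 to -1.05. Ccnb2, Aurka, Cdc20 and Ube2c passed the adjusted p at -0.88 to -0.54, while Cenpa (-0.71, adjusted p = 0.0576), Birc5 (-0.31, adjusted p = 0.173) and Mybl2 (-0.31, adjusted p = 0.349) did not.

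Among G1/S genes the large subunit of ribonucleotide reductase and cyclin E2 had the lowest values. Rrm1 was at 94.7 and 151.7 CPM with CDN2 against 420.9 and 301.1 CPM with PBS (-1.55 ± 0.25, adjusted p = 0.000514), and Ccne2 at 7.4 and 10.7 CPM against 27.4 and 25.7 CPM (-1.54 ± 0.26, adjusted p = 0.000661). Rrm2 was called at -1.26 ± 0.22 (adjusted p = 0.000885). Mcm2, Mcm3, Mcm4 and Mcm6 were called at -1.40 to -1.05, and Mcm5 and Mcm7 passed the adjusted p at -0.76 and -0.65. Pcna (-0.58 ± 0.19, adjusted p = 0.0229), Tyms (-0.66, adjusted p = 0.0127) and Tk1 (-0.70, adjusted p = 0.032) passed the adjusted p at ratios under 2. E2f1 alone among the 41 phase genes lay above PBS: 170.2 and 58.1 CPM with CDN2 against 52.2 and 70.4 CPM (0.90 ± 0.36, adjusted p = 0.0549), with replicate 1 far above replicate 2 and the groups overlapping.

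The medians for free CDN2 moved less with single tumors, from -1.51 to -1.10 for G2/M and from -0.94 to -0.56 for G1/S. With GC and length offsets 14 G2/M and 6 G1/S genes were called lower and the G2/M median was -1.16. The share of all genes called lower with these offsets is not given.

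**Figure D2:**
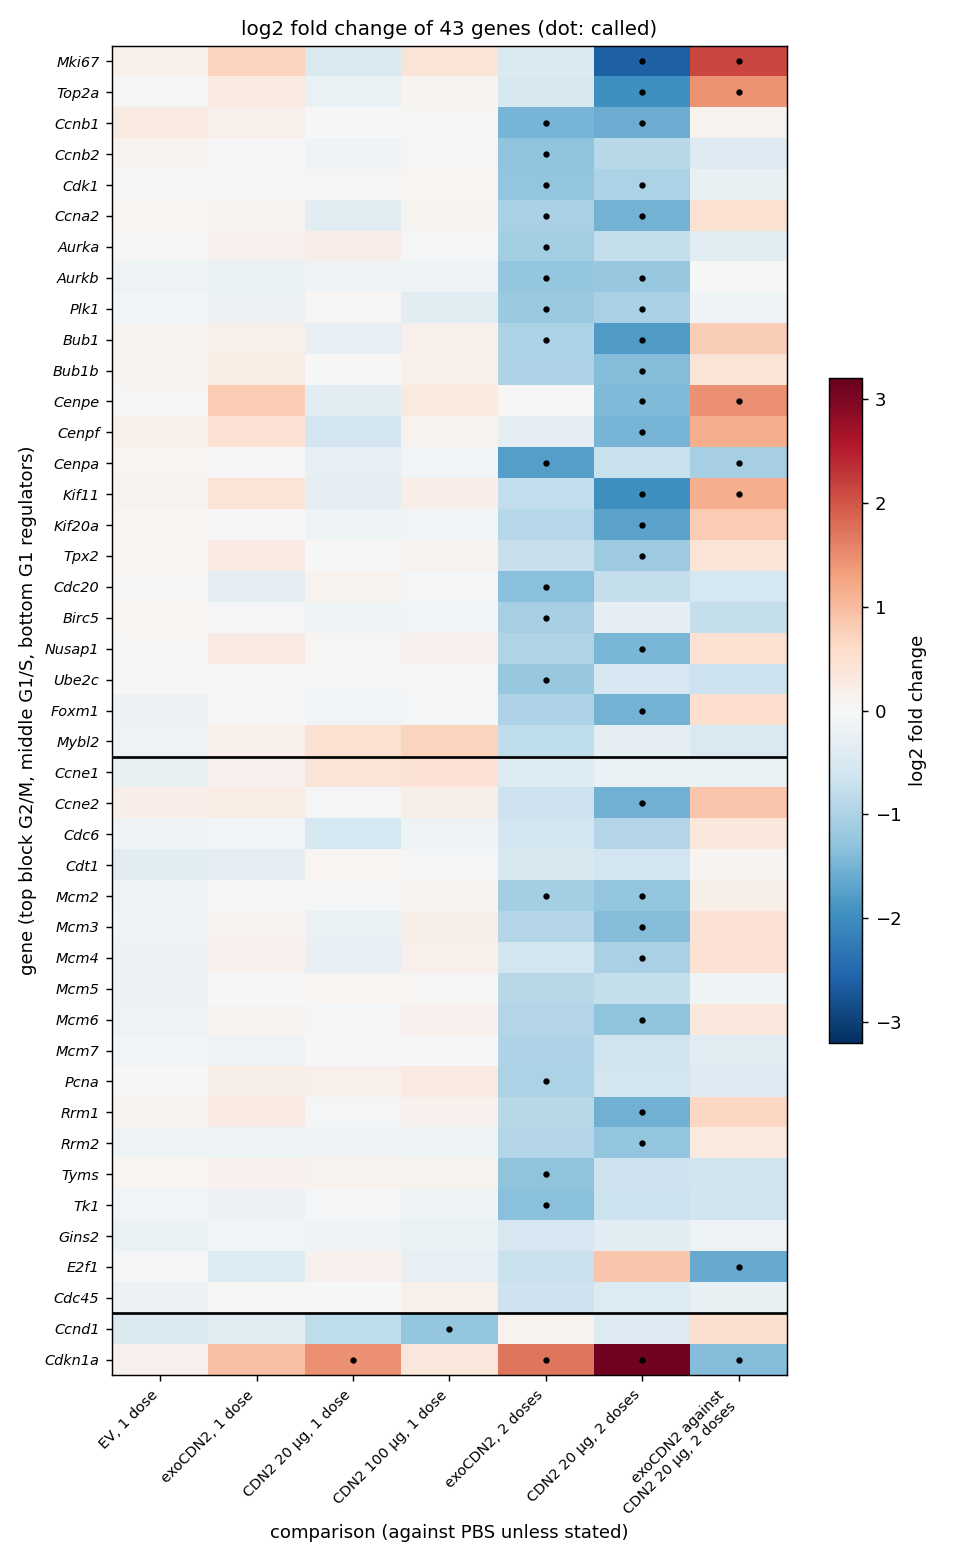
Log2 fold change of the 43 genes (rows: G2/M on top, G1/S in the middle, the 2 G1 regulators at the bottom) in 7 comparisons (columns), colored from blue (lower) to red (higher), with a black dot where the gene was called. The 1-dose columns hold no dot among the 41 phase genes, and the columns for 2 doses against PBS hold 16 dots (exoCDN2) and 23 dots (CDN2 20 µg) there.

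Cdkn1a rose with both treatments after 2 doses. It was at 64.2 and 97.2 CPM with PBS, 267.6 and 259.1 CPM with exoCDN2, and 857.7 and 521.1 CPM with CDN2 20 µg. The log2 fold change was 1.71 ± 0.26 with exoCDN2 (adjusted p = 0.00102; background 8.87% of all genes higher) and 3.10 ± 0.28 with CDN2 (adjusted p = 1.83e-05; background 20% of all genes higher). It was lower with exoCDN2 than with CDN2 (-1.39 ± 0.26, adjusted p = 0.00332). Ccnd1 did not pass against PBS, at 154.3 and 195.9 CPM with exoCDN2, 130.5 and 113.4 CPM with CDN2 and 140.7 and 184.6 CPM with PBS.

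Set directly against each other after 2 doses, the treatments differed in 6 phase genes, and the 4 that were higher with exoCDN2 had long transcripts. Higher with exoCDN2 were 4 G2/M genes (background 7.34%): Mki67 (2.14 ± 0.62, adjusted p = 0.0197), Top2a (1.44 ± 0.39, adjusted p = 0.0154), Cenpe (1.47 ± 0.54, adjusted p = 0.0499) and Kif11 (1.16 ± 0.39, adjusted p = 0.0365). Lower with exoCDN2 (background 12%) were Cenpa (-1.05 ± 0.29, adjusted p = 0.0173) and E2f1 (-1.62 ± 0.37, adjusted p = 0.00717). The difference was not called for most genes lower with both: Ccnb1 had a log2 difference of 0.11 ± 0.18 (adjusted p = 0.656), Cdk1 -0.25 ± 0.16 (adjusted p = 0.248) and Mcm2 0.18 ± 0.22 (adjusted p = 0.541).

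The 4 genes higher with exoCDN2 are 4 of the 5 longest phase transcripts. Over the 41 phase genes, the log2 difference between the treatments had a Spearman correlation of 0.70 with transcript length, and over 10700 genes of 0.58. Whether length had a part in these calls was not tested beyond the offsets given next. The median log2 difference of all genes was -0.50 for 2660 transcripts under 2000 bases and 0.63 for 2715 transcripts over 4700 bases. With GC and length offsets 0 G2/M genes were called higher, and Cdkn1a, E2f1 and Birc5 were called lower at -1.04, -1.42 and -1.07, while Cenpa had -0.81 (adjusted p = 0.0531). The calls depended on single tumors and were lost without CDN2 replicate 1. With 1 tumor left out the median difference ran from 0.13 to 0.63 for G2/M and from -0.23 to 0.25 for G1/S. A fit of these groups alone called 0 members.

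**Figure D3:**
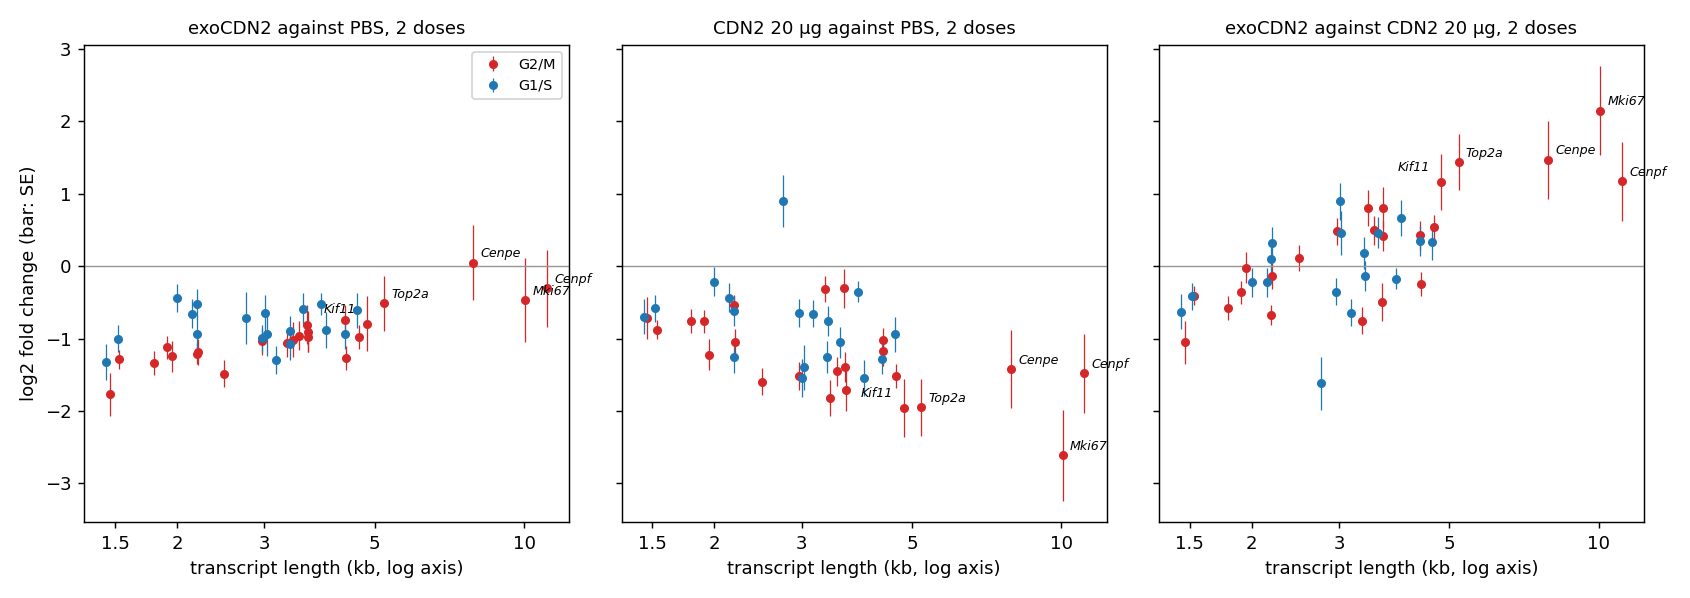
Log2 fold change (bar: SE) of 23 G2/M genes (red) and 18 G1/S genes (blue) against transcript length in kb on a log axis, for exoCDN2 against PBS, CDN2 20 µg against PBS and exoCDN2 against CDN2 20 µg, all after 2 doses. The Spearman correlation with length over the 41 genes is 0.57, -0.53 and 0.70, and Mki67, Cenpe, Cenpf, Top2a and Kif11 are named.

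G2/M genes were lower after the second dose than after the first with both treatments. In exoCDN2 tumors 12 G2/M genes and 1 G1/S gene, Tyms, were lower after 2 doses than after 1 (background 2.34% of all genes lower). In CDN2 20 µg tumors 12 G2/M genes and 2 G1/S genes, Rrm1 and Rrm2, were lower (background 6.36%), and Cdkn1a was higher (1.06 ± 0.26, adjusted p = 0.0088), though not with GC and length offsets (0.80). Left-out tumors moved the exoCDN2 counts, which were lowest without replicate 1 and highest without replicate 2 of the second dose. The exoCDN2 median then ran from -1.29 to -0.92 for G2/M and from -1.05 to -0.38 for G1/S. Cell type markers moved between the doses as well. With CDN2, all 6 endothelial and all 8 neutrophil markers, 5 of 7 fibroblast and 5 of 6 skeletal muscle markers were called higher and 6 of 10 melanocyte markers lower. The share of all genes called higher between the doses is not given here. The endothelial markers Pecam1, Cdh5, Kdr, Emcn and Esam had been called lower than PBS after 1 dose. Against PBS after 2 doses Kdr was the only endothelial marker called, and it was lower (-1.10). With exoCDN2, 4 of 6 leukocyte and 7 of 10 T and NK cell markers were called higher and 0 of 10 melanocyte markers were called. Their part in the cell cycle values was not tested. The CDN2 counts of 2 doses against 1 moved up or down with the tumor left out. The median log2 fold change then ran from -1.25 to -1.05 for G2/M and from -0.72 to -0.43 for G1/S. A fit of these groups alone called 3 members. Between PBS tumors of 2 doses and 1 dose none of the 43 genes was called in edgeR or DESeq2, with 1.1% of all genes called in either direction and 1 G2/M and 0 G1/S genes at an unadjusted p under 0.05. Without PBS replicate 1 of the second dose 3 G2/M genes were called lower there, and with no filter on low counts 1 member was called. Set relative to PBS at the same number of doses, the change from the first to the second dose was called lower for 11 G2/M and 2 G1/S genes with exoCDN2 (background 1.7%) and for 13 G2/M and 5 G1/S genes with CDN2 20 µg (background 5.16%). Ccnb1 gave -1.64 ± 0.26 (adjusted p = 0.00305) with exoCDN2 and -1.61 ± 0.26 (adjusted p = 0.00309) with CDN2. For exoCDN2 this count fell without most single tumors and rose most without exoCDN2 replicate 2 of the second dose. The median of the exoCDN2 change then ran from -1.36 to -0.86 for G2/M and from -1.22 to -0.57 for G1/S. For CDN2 the count fell most without a PBS tumor of the first dose. It fell less without a CDN2 tumor of the first dose or PBS replicate 2 of the second dose. With 1 tumor left out the median of the CDN2 change ran from -1.37 to -1.12 for G2/M and from -0.93 to -0.60 for G1/S.

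The pair of tumors labelled with 2 doses of free CDN2 and no amount showed no called member. None was called against PBS in a fit that added this pair as a ninth group (17110 genes tested, 0.959% called in either direction), and 1 G2/M and 1 G1/S gene had an unadjusted p under 0.05. DESeq2 called no phase gene. Ccnb1 was at 184.7 and 254.7 CPM and Top2a at 585.6 and 618.8 CPM. Cdkn1a was at 141.3 and 182 CPM (1.00 ± 0.26, adjusted p = 0.113), above both PBS tumors, and was called by DESeq2 (1.01, adjusted p = 0.017) and with GC and length offsets (1.04, adjusted p = 0.0303). Without replicate 1 of this pair, or without PBS replicate 1, 2 members were called. The median log2 fold change was 0.080 for G2/M and -0.025 for G1/S. What the unlabelled amount was is not given, so the pair cannot be placed on a dose scale.

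Further cell cycle genes outside the 43 were read against the shares of all genes called, 2.48% lower and 8.87% higher with exoCDN2 and 10.6% lower and 20% higher with CDN2 20 µg. Of 35 other G2/M genes, 17 were called lower after 2 doses of exoCDN2 (median log2 fold change -0.98) and 24 after CDN2 20 µg (median -1.37). Cdc25c, the phosphatase that activates Cdk1, fell with exoCDN2 (-1.75, adjusted p = 5.76e-05) and with CDN2 (-1.68, adjusted p = 5.24e-05), and Racgap1, needed for cytokinesis, fell with both (-1.25 and -1.37). Pttg1, securin, was the exception and was called higher with CDN2 (1.70, adjusted p = 3.2e-05). Of 35 other G1/S genes, 1 was called lower with exoCDN2 (median -0.69) and 22 with CDN2 (median -1.13), Uhrf1, Prim1 and E2f8 among them with -1.62, -1.26 and -1.57. Of 15 p53 target genes, 3 were called higher with exoCDN2 (median 0.59) and 8 with CDN2 (median 1.19). Fas, a death receptor, was called at 2.64 and 4.55, Pmaip1, a BH3-only protein, at 2.47 and 4.34, and Mdm2, the ligase that removes p53, at 1.01 and 1.19. A list of 12 genes, mainly CDK inhibitors and pocket proteins, also held the antiproliferative gene Btg2. Of these 12, only Btg2 (1.72) was called higher with exoCDN2, and 3 were higher and 2 lower with CDN2. Cdkn1c (p57) rose with CDN2 (3.73, adjusted p = 0.00152), and Cdkn2c (p18) and the pocket protein Rbl1 fell (-1.27 and -1.35). Of 7 genes (the D cyclins Ccnd2 and Ccnd3, the kinases Cdk4, Cdk6 and Cdk2, and Myc and Mycn), 0 were called with exoCDN2 and 2 were lower with CDN2, Myc at -1.30 and Cdk2, a partner of cyclins E and A, at -1.20. With 2 doses of exoCDN2 Myc had -0.56 (adjusted p = 0.0966), and its difference from CDN2 was under the ratio limit (0.74, adjusted p = 0.0229). Myc was already called lower after 1 dose of exoCDN2 (-1.12, adjusted p = 0.0145), CDN2 20 µg (-1.45, adjusted p = 0.00306) and CDN2 100 µg (-1.57, adjusted p = 0.00274). Ccnd2 and Ccnd3 had log2 fold changes with CDN2 of 0.92 (adjusted p = 0.0441) and 0.93 (adjusted p = 0.00089), under the ratio limit.

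Markers of the cell types in the tumors also differed after 2 doses. Fewer cells of a type and less RNA per cell cannot be told apart in bulk tumors. Melanocyte markers summed to 25140 and 25690 CPM with PBS, 16089 and 17414 CPM with exoCDN2 and 7747 and 13730 CPM with CDN2 20 µg, and 0 and 7 of the 10 were called lower (medians -0.45 and -1.36). Leukocyte markers (6 genes, Ptprc the defining one) were called higher in 5 and 6 genes, with medians of 2.74 and 2.56. Neutrophil markers (8 genes) had medians of 5.07 and 8.38, with 7 and 8 called higher, and T and NK cell markers (10 genes) 4.44 and 2.84, with 9 and 8 called higher. Macrophage and monocyte markers (10 genes) had medians of 1.40 and 1.48. Skeletal muscle markers (6 genes) had a median of 3.59 with CDN2, where 4 were called higher and their sum was 3654 and 2121 CPM against 175.8 and 312.4 CPM with PBS; with exoCDN2 the median was -0.25 and 0 were called. The part of these shifts in the values of the cell cycle genes was not tested.

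**Figure D4:**
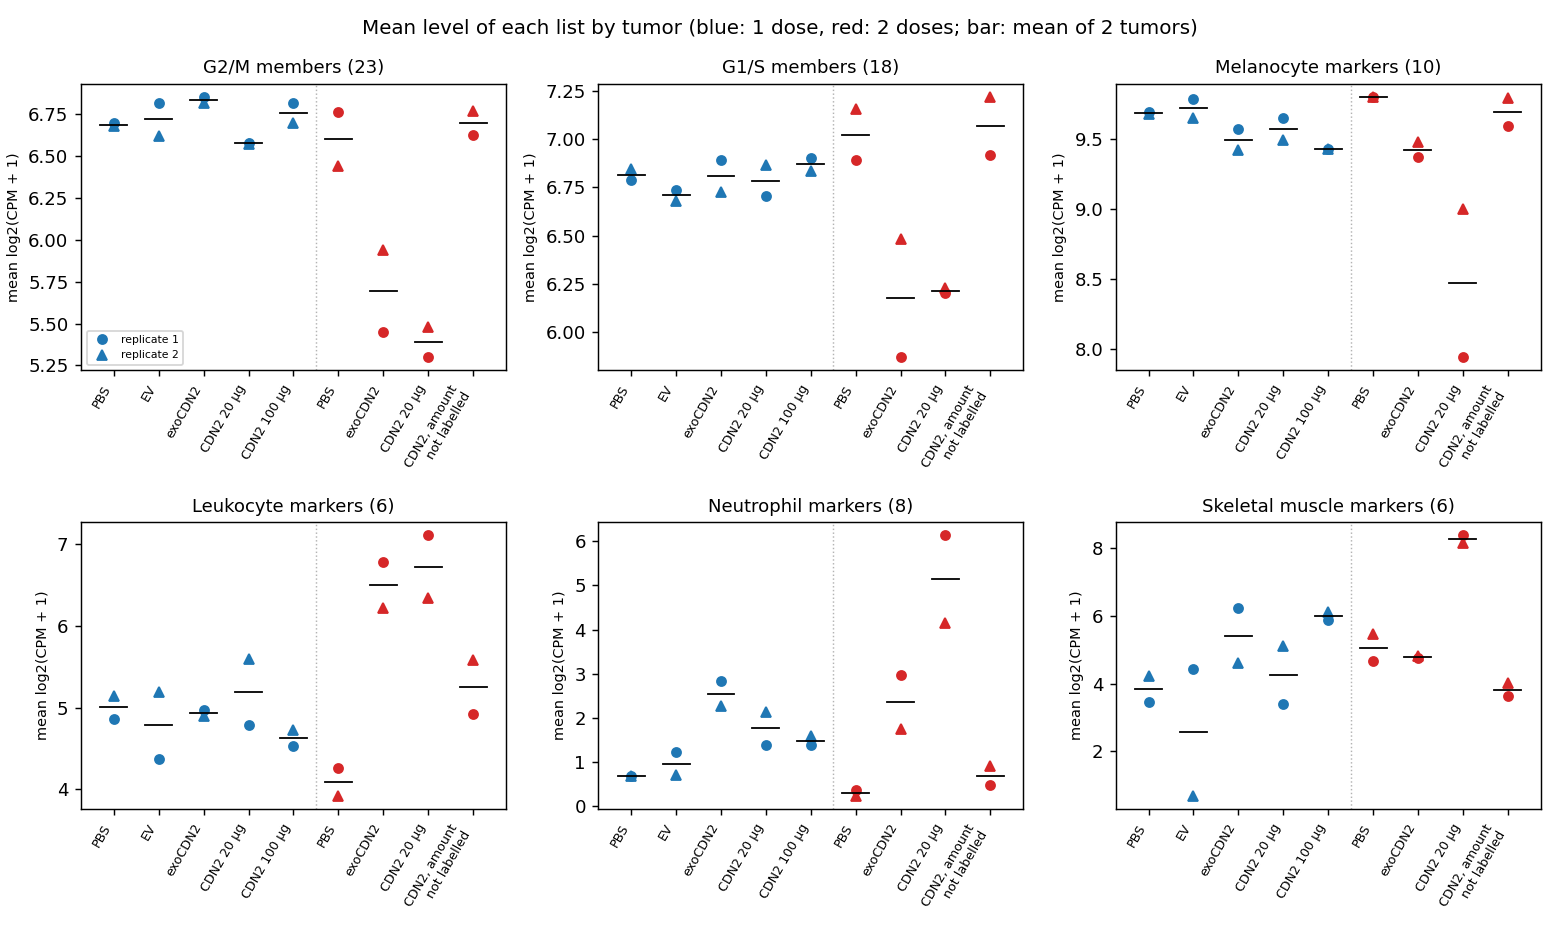
Mean log2(CPM + 1) of the G2/M and G1/S genes and of markers of melanocytes, leukocytes, neutrophils and skeletal muscle in each tumor (circle replicate 1, triangle replicate 2; bar the mean of 2 tumors), by treatment group. In the G2/M and G1/S panels the 4 tumors given 2 doses of exoCDN2 or CDN2 20 µg lie below every other tumor, and for leukocytes they are higher than every other tumor. In the neutrophil panel exoCDN2 replicate 2 lies among the tumors given a single dose of agonist.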

How the data were processed

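RNA-seq of 18 B16F10 tumors in 9 groups of 2 was analysed. The authors aligned the reads with OSA to the mouse genome (mm10) and quantified genes with RSEM, and deposited expected counts per gene, unnormalized. Between 8.63% and 12.6% of values were not whole, and they were rounded. Total expected counts per tumor were 21608895 to 65983630. Genes were kept by filterByExpr (minimum count 10, minimum total 15), which left 16927 of 50600. Libraries were scaled by TMM, and 16 tumors in 8 groups were fitted together by edgeR 4.0.16 (R 4.3.3, quasi-likelihood F test, no replicate block). A fit of all 18 tumors (17110 genes) served the pair without an amount. Benjamini-Hochberg adjustment ran over every gene tested, and calls needed both an adjusted p below 0.05 and a ratio above 2. Correlations with transcript length and GC content (GENCODE) are descriptions. Promoters came from RefSeq GRCm38.p6.

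Alternatives were DESeq2 1.42.0, RLE factors, no filter, a replicate block, all 18 tumors, pooled PBS, only the groups compared, no limit on the ratio, Mybl2 counted with G1/S, offsets for GC content and length, and leaving out each tumor. The members and lists were chosen with earlier results of these data known. Named genes were a preset set of 11 members, every called member, up to 5 members of each phase with the smallest p, up to 3 called genes of each other list and direction, and genes whose role bears on a member named.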

Additional observations from a re-analysis of the deposited data

Results flagged for a closer look

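The change from the first to the second dose, relative to PBS at the same number of doses, differed from 0 by the interaction test of edgeR for several cell cycle genes. With exoCDN2 it was called lower for 11 of 23 G2/M and 2 of 18 G1/S genes (background 1.7% of all genes lower). This count moved with single tumors, as given above. Ccnb1 (cyclin B1) had a log2 difference of -1.64, Cdk1 of -1.31 and Pcna, the replication clamp, of -1.19.

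With CDN2 20 µg it was called lower for 13 of 23 G2/M and 5 of 18 G1/S genes (background 5.16% of all genes lower). This count also moved with single tumors. The log2 difference was -1.73 for Top2a, -1.61 for Ccnb1, -1.07 for Cdk1, -1.19 for the helicase subunit Mcm2 and -1.15 for Rrm2 of ribonucleotide reductase. For Cdkn1a (p21), an inhibitor of cyclin-dependent kinases, it was 1.64, and this gene was called higher.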

How the results depend on the processing

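Of 145 values of single genes under 1088 combinations of gene and alternative, 78 lost and 10 gained the call, and with 1 tumor left out (708 combinations) 156 lost and 14 gained it. The cause of each change was not tested, apart from fits with fewer tumors. The share of all genes called is not given with 1 tumor left out. Under the alternatives it is given only with no limit on the ratio. Counts of members in the other fits cannot be judged against it. Offsets for GC content and length, and the crossed pairing, were chosen after seeing the data.

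The number of members called was, with no limit on the ratio, 2 for CDN2 20 µg after 1 dose, and after 2 doses 29 for exoCDN2 against PBS, 17 for exoCDN2 against CDN2, 27 for exoCDN2 and 31 for CDN2 against 1 dose. At this limit 7.04% of all genes were lower for exoCDN2 of 2 doses against PBS, while the 29 counts members in either direction. The share of all genes at this limit is not given for the other counts, which cannot be judged against it. With only the groups compared it was 3 for exoCDN2 against CDN2 20 µg after 1 dose, 0 after 2 doses, 3 for CDN2 of 2 doses against 1 dose, and 11 for its change relative to PBS. With no filter it was 3 for exoCDN2 against CDN2 20 µg after 1 dose, 1 for PBS of 2 doses against 1 dose, 1 for the pair without an amount and 23 for the change with exoCDN2 relative to PBS, where DESeq2 gave 22. DESeq2 and the offsets each gave 1 for the pair without an amount. Pooled PBS and the offsets each gave 1 for exoCDN2 after 1 dose, and the offsets gave 3 for exoCDN2 against CDN2 after 2 doses.

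With pooled PBS the G1/S median was -0.22 for EV, -0.083 for exoCDN2, -0.16 for CDN2 20 µg and -0.066 for CDN2 100 µg after 1 dose, and the G2/M median -0.0020 for exoCDN2 and -0.15 for CDN2 20 µg. With the offsets the G1/S median was -0.087 for EV and -0.88 for the change with CDN2 relative to PBS, and the G2/M median 0.11 for exoCDN2 and -0.076 for CDN2 20 µg after 1 dose, -1.16 for CDN2 of 2 doses against PBS and -1.09 against 1 dose. The G2/M median of exoCDN2 after 1 dose was 0.18 with RLE factors, 0.18 with DESeq2, 0.16 with only the groups compared and 0.11 with Mybl2 counted with G1/S, and against CDN2 20 µg 0.18, 0.18 and, with Mybl2 moved, 0.19.

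Direction reversed for exoCDN2 of 2 doses against PBS in Cenpe (-0.62) and Ccnd1 (-0.11) with pooled PBS, and for CDN2 against PBS in Birc5 (0.014) with the offsets. For exoCDN2 against CDN2 the G1/S median reversed to 0.048 with no filter and 0.0022 with the offsets, and Ccnb1 to -0.12 with the offsets.

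With 1 tumor left out, members called ranged from 0 to 1 for CDN2 20 µg and for CDN2 100 µg after 1 dose, 0 to 2 for the pair without an amount, 0 to 3 for PBS of 2 doses against 1 dose, 10 to 30 for exoCDN2 of 2 doses against PBS, 0 to 12 against CDN2 and 3 to 26 against 1 dose, and for the changes relative to PBS 6 to 29 with exoCDN2 and 9 to 23 with CDN2. The G2/M median ranged from 0.059 to 0.15 for exoCDN2, -0.12 to -0.088 for CDN2 20 µg and -0.019 to 0.14 for CDN2 100 µg after 1 dose, 0.15 to 0.22 for exoCDN2 against CDN2 20 µg, -1.51 to -1.10 for CDN2 of 2 doses against PBS, -1.25 to -1.05 against 1 dose, 0.13 to 0.63 for exoCDN2 against CDN2, -0.12 to 0.033 for the pair without an amount, and -1.36 to -0.86 with exoCDN2 and -1.37 to -1.12 with CDN2 for the changes relative to PBS. The G1/S median ranged from -0.041 to 0.12 for exoCDN2, -0.12 to 0.10 for CDN2 20 µg, 0.057 to 0.14 for CDN2 100 µg and -0.060 to 0.15 for exoCDN2 against CDN2 20 µg after 1 dose, 0.050 to 0.41 for PBS of 2 doses against 1 dose, -1.25 to -0.59 for exoCDN2 and -0.94 to -0.56 for CDN2 of 2 doses against PBS, -0.23 to 0.25 between them, -1.05 to -0.38 for exoCDN2 and -0.72 to -0.43 for CDN2 against 1 dose, and -1.22 to -0.57 and -0.93 to -0.60 for the changes relative to PBS. Genes that reversed ranged, for exoCDN2 of 2 doses against PBS, from -1.24 to 1.28 (Mki67), -0.90 to 0.0093 (Top2a), -0.69 to 1.64 (Cenpe), -1.05 to 1.33 (Cenpf) and -0.076 to 0.32 (Ccnd1). For CDN2 they ranged from -2.18 to 0.15 (Cenpe), -2.24 to 0.14 (Cenpf), -0.44 to 0.0053 (Ccne1) and -0.089 to 1.42 (E2f1), and between the treatments from -0.17 to 0.38 (Ccnb1), -0.49 to 0.0015 (Cdk1) and -0.13 to 0.47 (Mcm2).

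The labels link same-numbered tumors by the number alone. Their deviations from the group means correlated by 0.0022 on average over 28 pairs of groups (-0.183 to 0.322). The highest value was that of exoCDN2 and CDN2 20 µg, both of 2 doses. An average over all pairs cannot show that no pair of groups shared a day or batch. With the replicate block 18 members were called for exoCDN2 of 2 doses against PBS, 22 for CDN2, 6 between them, 10 and 16 against 1 dose, 14 and 17 for the changes relative to PBS, and 0 for the pair without an amount. With the numbers of the CDN2 20 µg, 2 doses pair crossed in the block, 23 were called against PBS and 15 against 1 dose.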

Other observations

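Markers of other cell types in the skin and stroma were measured in the same tumors after 2 doses. Of 7 fibroblast markers, 2 were called higher with exoCDN2 and 4 with CDN2 20 µg, with median log2 fold changes of 1.17 and 1.43. Of 6 endothelial markers, 0 were called with exoCDN2 by edgeR (0 at an unadjusted p under 0.05), and 1 was called lower with CDN2, with medians of 0.14 and -0.034. The 6 keratinocyte markers had medians of 6.86 and 4.14 with 0 called, and their summed level was 75 CPM in exoCDN2 replicate 1 and 0.0705 CPM in replicate 2. It was 21.2 and 1.59 CPM with CDN2 20 µg and only 0.469 and 0.131 CPM in the PBS tumors of 2 doses. PBS tumors of 1 dose held 117 and 63.1 CPM, so these medians rest on controls with almost no keratinocyte RNA.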
